A study of Homo sapiens with 5 samples.

Results

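The genes described here are 10 noncoding host genes of small nucleolar RNAs (snoRNAs): GAS5, SNHG1, SNHG3, SNHG5, SNHG6, SNHG7, SNHG8, SNHG12, SNHG15 and SNHG16. They were taken from the table by symbol, and they are 10 of the 26485 genes in the deposited table of RNA-seq read counts. RNA was measured in 5 libraries of wild-type RPE1 cells, an immortalized line of human retinal pigment epithelial cells. After 18 h of treatment there were 2 libraries with the solvent DMSO, 2 with doxorubicin at 0.2 µM and 1 with doxorubicin at 0.34 µM. Doxorubicin is an anticancer drug that intercalates into DNA and inhibits topoisomerase 2. The doses are those of the sample titles. The study calls the libraries biological replicates, all are of 1 line and 1 time point, and the lone library at 0.34 µM has no replicate of its own. In bulk RNA, a change in every cell and a change in the share of cells that express a gene cannot be told apart.

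A snoRNA host gene is transcribed by RNA polymerase II, and snoRNAs are cut out of its introns and packed into particles that guide the methylation and pseudouridylation of ribosomal RNA. The spliced exons of the 10 genes encode no known functional protein. Transcripts of this class are known to start in a pyrimidine tract as mRNAs of ribosomal proteins do, to be bound by ribosomes and to be degraded by nonsense-mediated decay, so that their level depends on transcription, translation and decay together. GAS5 was named for its accumulation in growth-arrested cells.

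The libraries held between 23773061 and 36725345 counted reads. The line carried the epithelial keratins KRT8 and KRT18 and the transcription factors MITF and OTX2, while RPE65 and RLBP1, which define mature pigment epithelium, and TYR were under 1 CPM (a gene's counts relative to the size of the library after TMM normalization, with no correction for gene length) in every library. The 10 markers of the epithelium and the line summed to 639 to 785 CPM in DMSO and 1050 to 1250 CPM in doxorubicin. KRT8 and KRT18 dominated this sum, with fitted log2 fold changes of 0.87 and 0.63 for doxorubicin over DMSO. The change was 0.05 for MITF, -0.02 for OTX2 and -0.60 for TERT. BEST1 and PMEL, both at low counts, had 1.88 and 2.29. For the 5 fibroblast markers, dominated by COL1A1, the sum was 71.4 to 297 CPM in DMSO and 46.9 to 195 CPM in doxorubicin. The 3 endothelial markers reached at most 2.62 CPM in sum in DMSO and 3.53 CPM in doxorubicin, and the 3 blood markers 0.313 and 2.20 CPM, with HBB at 0 in all libraries. The part of these differences in the results below was not tested.

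RefSeq lists all 10 genes on GRCh38.p14, the build of the reads, and annotates each as a long noncoding RNA. GAS5 spans chr1:173863901-173869045 on the minus strand, and SNHG3 (chr1:28505943-28510892, plus strand) and SNHG12 (chr1:28578538-28582983, minus strand) lie on the same chromosome. SNHG8 spans chr4:118278762-118279823 on the plus strand. Start-site sequence was given for 8 of the 10 genes. The windows shown here hold 40 bases before the annotated start and 20 bases from it, because the promoter element and the pyrimidine tract that this class is known for would lie there. Capitals mark TATAA, the core of a TATA box, searched for on the gene's strand in the 40 bases before the start. The first 4 windows hold it and the last 2 do not.
SNHG8: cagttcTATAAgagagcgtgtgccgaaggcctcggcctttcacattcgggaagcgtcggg
SNHG5: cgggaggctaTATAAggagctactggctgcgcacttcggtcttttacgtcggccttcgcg
SNHG7: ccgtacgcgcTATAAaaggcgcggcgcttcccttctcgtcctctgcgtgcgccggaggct
SNHG12: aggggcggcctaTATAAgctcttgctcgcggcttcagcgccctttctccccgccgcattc
SNHG1: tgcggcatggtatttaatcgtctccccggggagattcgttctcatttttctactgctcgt
SNHG3: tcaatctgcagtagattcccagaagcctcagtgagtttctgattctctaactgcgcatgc

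These windows, read from the RefSeq promoter table, lie at chr4:118278722-118278781 (plus strand) for SNHG8, chr6:85678714-85678773 (minus) for SNHG5, chr9:136728165-136728224 (minus) for SNHG7, chr1:28581854-28581913 (minus) for SNHG12, chr11:62855866-62855925 (minus) for SNHG1 and chr1:28505903-28505962 (plus) for SNHG3. The start used for SNHG12 is inside the annotated span of the gene, which has 8 RefSeq transcripts. TATAA began 34 bases before the start in SNHG8, 30 in SNHG5 and SNHG7, and 28 in SNHG12. It was thus present in 4 of 8 genes, and in 4.50% of 35116 promoters of the table. A C followed by at least 4 C or T, within 20 bases of the start on either side, was present in 7 of 8 genes, GAS5 being the exception, and in 50.5% of all promoters. GAS5 has 50 RefSeq transcripts, and only 1 start of each gene was searched, so other starts of GAS5 may differ. The starts are those of the annotation and were not measured in these cells, and the tract lay at the annotated start itself in SNHG5 but began 19 bases before it in SNHG1. CACGTG, the E-box that MYC and related factors bind and which reads the same on both strands, was present in 1 of 8 genes, SNHG7, within 300 bases around the start, and in 7.26% of all promoters. These are matches of letters and not measured binding sites.

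First, the levels of the 10 genes were compared between doxorubicin and DMSO, to ask whether the host genes respond to 18 h of the drug. All 10 were expressed in every library and passed the filter on low counts, and none differed between the 3 doxorubicin and the 2 DMSO libraries at an adjusted p of 0.01 (edgeR's quasi-likelihood test, Benjamini-Hochberg adjustment over 14187 genes). DESeq2 and limma voom called 0 of the 10 as well. In the whole table, edgeR called 1.29% of genes higher and 2.73% lower, and DESeq2 called 6.59% higher and 8.02% lower. The fitted change was positive for 7 genes and negative for 3, from -0.42 for SNHG3 to 0.94 for SNHG8 on the log2 scale, with a median of 0.33 beside 0.01 over all genes. This median rests on the DMSO pair: it was -0.08 without the first DMSO library and 0.74 without the second. At an unadjusted p of 0.05, SNHG8 was the single member passed, beside 30.8% of all genes, of which 15.2% were higher and 15.6% lower.

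**Figure D1:**
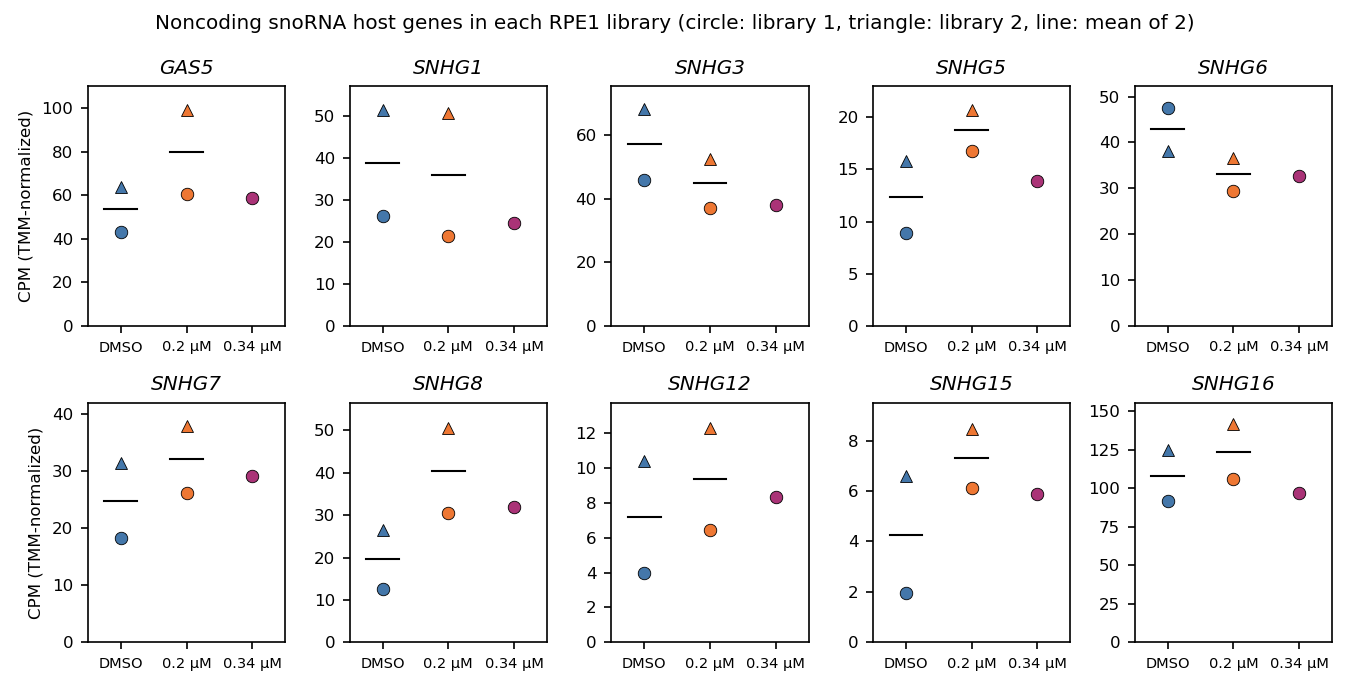
Level of each of the 10 snoRNA host genes in CPM (vertical axis, linear, from 0, a scale of its own for each gene) in the 5 libraries, by treatment on the horizontal axis; circles are first libraries, triangles second libraries and lines the mean of 2. The 3 doxorubicin libraries lie above both DMSO libraries for SNHG8 and below both for SNHG6, and overlap with them for the other 8 genes.

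SNHG8, the host of SNORA24, showed the largest fitted change of the 10. Its level was 12.7 and 26.5 CPM in the DMSO libraries, 30.4 and 50.5 CPM at 0.2 µM, and 32.0 CPM at 0.34 µM, from 333 to 1215 counts. All 3 doxorubicin libraries were above both DMSO libraries, as they were for 24.3% of all genes. The fit gave 1.92 times the DMSO level (log2 fold change 0.94 ± 0.37 SE, 95% interval of the fold 1.04 to 3.54, n = 3 and 2), with a p of 0.041 and an adjusted p of 0.143 from edgeR's quasi-likelihood test. The change was 0.49 without the first DMSO library and 1.55 without the second.

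SNHG6, the host of SNORD87, was the other gene without overlap, in the opposite direction. It had 47.5 and 38.2 CPM in DMSO, 29.5 and 36.7 CPM at 0.2 µM and 32.6 CPM at 0.34 µM. All 3 doxorubicin libraries were below both DMSO libraries, as for 23.4% of all genes, with a fitted log2 fold change of -0.38 ± 0.18 (SE) and an adjusted p of 0.201 in edgeR. The gap between the groups was narrow, from 36.7 CPM in doxorubicin to 38.2 CPM in DMSO. The change was -0.22 without the first DMSO library and -0.55 without the second.

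GAS5, in which 10 intronic snoRNAs of the C/D box class, the guides of methylation, had rows in the table, had 43.2 and 63.9 CPM in DMSO, 60.5 and 99.1 CPM at 0.2 µM and 58.7 CPM at 0.34 µM. The highest value stood in 1 library at 0.2 µM, and the other 2 doxorubicin libraries lay between the DMSO libraries. The fitted log2 fold change was 0.44 ± 0.29 (SE) with an adjusted p of 0.353 in edgeR, and the 95% interval ran from 0.84 to 2.20 times the DMSO level. It was 0.18 without the first DMSO library, 0.73 without the second and 0.16 without the second library at 0.2 µM. SNHG5, the host of SNORD50A and SNORD50B, had 8.92 and 15.8 CPM in DMSO, 16.8 and 20.7 CPM at 0.2 µM and 13.9 CPM at 0.34 µM. Here both libraries at 0.2 µM were above DMSO and the library at 0.34 µM was between the DMSO libraries, with a fitted change of 0.47 ± 0.30 (SE; adjusted p of 0.345 in edgeR). This was 0.10 without the first DMSO library, 0.92 without the second and 0.31 without the second library at 0.2 µM.

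The remaining genes with a positive fitted change had wide intervals. SNHG15, the host of SNORA9 and the gene with the fewest reads, had 51 and 168 counts in DMSO, 158 and 204 at 0.2 µM and 213 at 0.34 µM, or 1.95, 6.58, 6.11, 8.48 and 5.87 CPM. The first DMSO library was low and the other 4 were between 5.87 and 8.48 CPM, and the fitted change of 0.68 ± 0.50 (SE) was 0.04 without that library and 1.79 without the second. SNHG12, which carries 4 snoRNAs, had 3.97 and 10.4 CPM in DMSO, 6.46 and 12.3 CPM at 0.2 µM and 8.32 CPM at 0.34 µM, and the groups overlapped (0.33 ± 0.46). SNHG7 had 18.2 and 31.3 CPM in DMSO, 26.2 and 37.9 CPM at 0.2 µM and 29.1 CPM at 0.34 µM (0.33 ± 0.28). For SNHG16, with 91.7 and 125 CPM in DMSO, 106 and 142 CPM at 0.2 µM and 97.3 CPM at 0.34 µM, the fit gave 0.09 ± 0.22, and the 95% interval of -0.44 to 0.62 was the narrowest among the 7 positive changes. Without the first DMSO library the change turned to -0.21 in SNHG12, -0.02 in SNHG7 and -0.13 in SNHG16, and without the second it was 1.16, 0.75 and 0.31. Without the second library at 0.2 µM it was 0.05, 0.16 and -0.09 in the same order. Without the first library at 0.2 µM it was 0.52 in SNHG12 and 0.14 in SNHG16, and without the library at 0.34 µM it was 0.20 in SNHG16. Adjusted p values of these 4 genes ran from 0.411 for SNHG15 to 0.828 for SNHG16 in edgeR.

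SNHG3, the host of SNORA73A and SNORA73B, had 45.8 and 68.3 CPM in DMSO, 37.2 and 52.4 CPM at 0.2 µM and 38.0 CPM at 0.34 µM. Of the doxorubicin libraries, 2 were below both DMSO libraries and 1 lay between them, for a fitted change of -0.42 ± 0.24 (SE; adjusted p of 0.283 in edgeR). It was -0.69 without the first DMSO library and -0.13 without the second. SNHG1, in which 8 snoRNAs had rows in the table, had 26.1 and 51.4 CPM in DMSO, 21.4 and 50.7 CPM at 0.2 µM and 24.6 CPM at 0.34 µM. Its values fell into a high and a low level in both treatments, and its change was -0.27 ± 0.44 (adjusted p of 0.727 in edgeR), with -0.69 without the first DMSO library, 0.28 without the second, -0.05 without the first library at 0.2 µM and -0.75 without the second.

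Next, the spread between libraries of one condition was set beside the change with treatment. The second DMSO library was above the first for 9 of the 10 genes, SNHG6 being the exception, and the second library at 0.2 µM was above the first for all 10. The median log2 difference between the libraries of a pair was 0.80 in DMSO and 0.51 at 0.2 µM, beside 0.01 and 0.02 over all genes, of which 7167 and 7403 of 14187 were higher in the second library. This was not particular to the 10 genes. Of 17 further noncoding hosts tested, 14 and 13 were higher in the second library, with medians of 0.60 and 0.36. Of 41 protein-coding hosts 31 and 39 were higher, with medians of 0.24 and 0.21. Of 19 snoRNA particle proteins 11 and 15 were higher, and of 16 factors of nonsense-mediated decay 6 and 15. For SNHG15 the difference within DMSO was 1.72, for SNHG12 it was 1.37 and for SNHG8 it was 1.06 on the log2 scale. The difference within DMSO was larger than the fitted change with doxorubicin in 9 of the 10 genes, SNHG6 again being the exception, and in 49.0% of all genes. In sum, the 10 genes took 300 and 437 CPM in DMSO, 341 and 511 CPM at 0.2 µM and 340 CPM at 0.34 µM, so that the second DMSO library was above 2 of the 3 doxorubicin libraries. Some markers of other cell types differed between the same libraries. The 5 fibroblast markers summed to 297 CPM in the first and 71.4 CPM in the second DMSO library, and to 195 and 46.9 CPM at 0.2 µM, with COL1A1 2.15 and 2.14 lower on the log2 scale in the second library of each pair. The 3 endothelial markers summed to 0.381 and 2.62 CPM in DMSO and to 1.00 and 3.53 CPM at 0.2 µM, and CDH5, the cadherin of endothelial cells, had 2 and 56 counts in DMSO, 4 and 69 at 0.2 µM and 5 at 0.34 µM. By the same log2 difference DCN went with COL1A1, at -2.39 and -1.75, and PECAM1 with CDH5, at 0.72 and 0.63. PDGFRA stood at -0.45 and -0.35 and COL1A2 at -0.14 and -0.26. VWF had 5 and 5 counts in DMSO and 15 and 5 at 0.2 µM, against the direction of CDH5. The part of these markers in the difference between libraries was not tested.

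**Figure D2:**
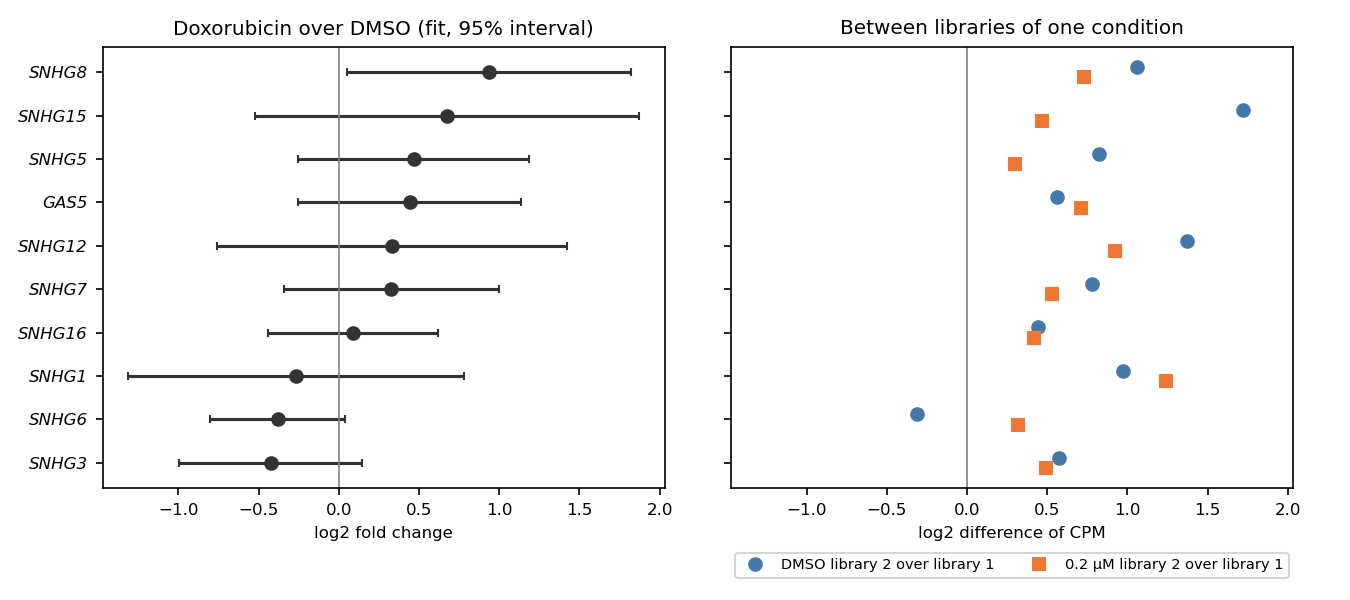
Left, fitted log2 fold change of doxorubicin over DMSO for each snoRNA host gene (points) with its 95% interval (bars). Right, on the same axis, the log2 difference in CPM of the second over the first library in DMSO (circles) and at 0.2 µM (squares), which is positive in 9 and in 10 of the 10 genes.

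By their course over the 5 libraries, GAS5 and SNHG7 were nearest to the median course of the group, with a root mean square difference of 0.08 and 0.09 on the scale of log2 CPM centred on each gene's mean. SNHG6 was farthest, at 0.51, and 7667 other genes were nearer to that median than it. The 5 genes outside the group that followed its median course most closely over the 5 libraries were NMB, ST3GAL4-AS1, IBA57, AASDHPPT and GTF2H3, at 0.04 to 0.05. AASDHPPT, for instance, had 28.6 and 49.5 CPM in DMSO, 44.2 and 62.8 CPM at 0.2 µM and 41.9 CPM at 0.34 µM. The 5 genes were picked for their likeness to that median course, so their higher second libraries follow from the choice. With 5 libraries such likeness is a description only.

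The doses were compared next. All 10 genes were lower at 0.34 µM than at 0.2 µM in the fit, by between 0.02 for SNHG6 and 0.55 for SNHG1 on the log2 scale, and 0 passed an adjusted p of 0.01 (edgeR, fit of 3 conditions), as did 0% of all genes. None of the 10 had an unadjusted p under 0.05 in edgeR, DESeq2 or limma voom, which gave 22, 26 and 14 such genes in the whole table. Against DMSO, the median change was 0.38 at 0.2 µM and 0.15 at 0.34 µM. The 95% intervals of the dose difference were wide, from -1.37 to 0.48 for GAS5 and from -1.53 to 0.86 for SNHG8, so a moderate difference in either direction was not excluded. The lone library at 0.34 µM takes its spread from the other conditions in this fit, which leaves 2 residual degrees of freedom. No gene of the whole table passed, so that the absence of the 10 genes does not decide whether the doses differ. The direction rested on the second library at 0.2 µM: the library at 0.34 µM was below it in all 10 genes, but above the first library at 0.2 µM in 6 of the 10, as in SNHG8 with 32.0 and 30.4 CPM, and below it in GAS5 with 58.7 and 60.5 CPM.

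The snoRNAs carried by these hosts were read from their own rows of the table. The 35 names led to 34 rows, because SNORA17B and SNORA43 are 2 names of 1 row. Of these rows, 27 had at least 10 counts in all and 18 were tested. In edgeR, 0 of the 18 passed an adjusted p of 0.01, with 0 at an unadjusted p under 0.05. DESeq2 made 0 calls and gave 2 of them no adjusted p. The fitted changes were positive for 14 of 18, beside 51.1% of all genes, with a median of 0.49. This median was 0.62 at 0.2 µM and 0.14 at 0.34 µM. All 18 were higher in the second library at 0.2 µM than in the first, by a median log2 difference of 1.30. In DMSO 13 of the 18 were higher in the second library, with a median difference of 0.81. Counts were small: SNORD80 in GAS5 had the most, with 19 and 61 in DMSO, 40 and 76 at 0.2 µM and 67 at 0.34 µM. The libraries were made from poly-A RNA, which mature snoRNAs lack, so these reads do not measure mature snoRNA, and reads of unspliced host RNA cannot be told apart from them.

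The sum over the snoRNAs inside GAS5 was 109 and 176 counts in DMSO, 112 and 296 at 0.2 µM and 218 at 0.34 µM, 911 in all beside 8846 on the separate row of GAS5, a ratio of 10.3%. The same ratio of snoRNA rows to host row was 12.2% for SNHG1, 4.28% for SNHG3 and 5.54% for SNHG15. It was highest in SNHG12, at 35.3% over 4 snoRNAs, with SNORA61 the largest of them. In SNHG16 the ratio was 0.131%, and both rows for SNHG7 were at 0. In GAS5, SNHG1 and SNHG3 the second library of each pair had the higher sum, as it had for the host gene itself. The same held at small sums in SNHG15, with 7 and 9 in DMSO and 5 and 10 at 0.2 µM, and in SNHG16. The rows inside SNHG12, SNHG8 and SNHG5 went otherwise in part. In DMSO the sums were 72 and 69 for SNHG12 and 11 and 4 for SNHG8. At 0.2 µM they were 8 and 4 for SNHG5, while the host was higher in the second library each time. For SNHG6 the sums in DMSO were 5 and 11, while the host was lower in the second library.

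**Figure D3:**
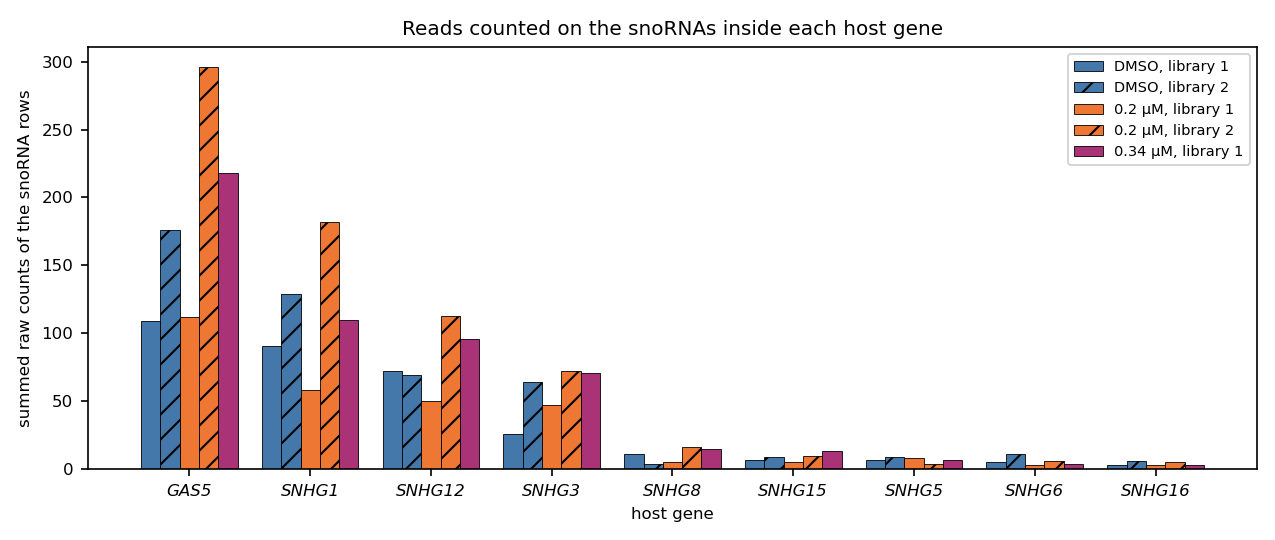
Raw counts summed over the snoRNA rows inside each host gene (vertical axis) for the 5 libraries (bars, hatched for second libraries). SNHG7, whose rows were at 0, is left out, and the highest sums are those of GAS5, from 109 to 296 counts.

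Other genes share the loci of several hosts. Whether counting used the strand was not stated in the sources used here, so reads from overlapping partners may not be told apart. RCC1, the exchange factor of the GTPase RAN, overlaps SNHG3 and had 48.5 and 82.3 CPM in DMSO, 29.1 and 32.7 CPM at 0.2 µM and 29.7 CPM at 0.34 µM. All doxorubicin libraries were below both DMSO libraries for RCC1, with a log2 fold change of -1.10 ± 0.23 (SE), an adjusted p of 0.028 in edgeR and a call by DESeq2. SNHG3 had the same sign at a smaller size. GAS5-AS1, on the other strand of GAS5, had 22 and 18 counts in DMSO and 4 to 11 in doxorubicin (-1.41 ± 0.49, adjusted p of 0.106 in edgeR), while GAS5 itself had a positive value. SLC3A2, an amino acid transporter subunit that starts within 1 kb of SNHG1 on the other strand, had 60.1 and 95.3 CPM in DMSO and 110 to 118 CPM in doxorubicin (0.56 ± 0.21, adjusted p of 0.129), against -0.27 for SNHG1. ZBTB37 at GAS5, TRNAU1AP at SNHG12 and MCMDC2 at SNHG6 had values of 0.06, 0.01 and -0.46, with groups that overlapped. DIPK1B and LOC124900276, which overlap SNHG7, were not found under these symbols, and older symbols were not tried. For SNHG6 and SNHG15, without start-site sequence, partners that start on the other strand were not searched for.

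Finally, the other genes of the snoRNA pathway were read in the same fit. Of 22 further noncoding hosts, 18 had a row and 17 were tested, and 0 were called by edgeR, with 2 higher and 2 lower at an unadjusted p under 0.05, a cut that 15.2% of all genes passed as higher and 15.6% as lower. Their changes were positive for 7 and negative for 10, with a median of -0.08. SNHG29, listed as LRRC75A-AS1, and SNHG32, listed as C6orf48, had the highest counts for this list, with changes of 0.51 ± 0.25 and 0.72 ± 0.29. EPB41L4A-AS1, the host of SNORA13, had 5.61 and 6.23 CPM in DMSO, 11.8 and 15.6 CPM at 0.2 µM and 12.2 CPM at 0.34 µM, and was called higher by DESeq2 alone (1.16 ± 0.23, adjusted p of 0.021 in edgeR). It was the 1 DESeq2 call among the 17, beside 6.59% of all genes called higher and 8.02% lower.

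Of 42 protein-coding hosts, 41 were tested and 0 were called by edgeR, with 5 higher and 6 lower at an unadjusted p under 0.05, beside 15.2% and 15.6% of all genes. The 22 ribosomal protein genes among them had positive changes in 19 and a median of 0.17. The 19 other coding hosts tested were split, 8 positive and 11 negative, with a median of -0.12. DESeq2 called 5 of the 41 coding hosts, 2 higher and 3 lower, beside 6.59% and 8.02% of all genes. EEF2, the elongation factor that moves the ribosome along the mRNA, was higher (0.62 ± 0.16), as was EIF4A2, a helicase of translation initiation (0.95 ± 0.19). NCL, the nucleolar protein nucleolin, DKC1, the pseudouridine synthase of H/ACA particles, and EIF4G2, an initiation factor, were lower (-0.83 ± 0.24, -0.87 ± 0.22 and -0.53 ± 0.15). RPS2, the ribosomal protein gene with the highest count here, had a value of 0.13 ± 0.16.

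For the proteins that build and form snoRNA particles, 17 of 19 changes were negative, the median was -0.36, and 0 were called by edgeR, with 6 lower and 0 higher at an unadjusted p under 0.05, beside 15.6% and 15.2% of all genes. DKC1 was the only one of the 19 called by DESeq2, as lower, beside 8.02% of all genes. It had 64.6 and 82.7 CPM in DMSO, 36.1 and 50.7 CPM at 0.2 µM and 34.7 CPM at 0.34 µM. NOLC1, a chaperone of snoRNA particles, and NOP56, a core protein of C/D particles that hosts snoRNAs itself, had the highest counts, with changes of -0.60 ± 0.22 and -0.39 ± 0.29. For nonsense-mediated decay, 13 of 16 factors had negative changes, with a median of -0.28, and 0 were called by edgeR, with 7 lower and 0 higher at an unadjusted p under 0.05, beside the same 15.6% and 15.2%. UPF3B, a bridge between the exon junction complex and the decay machinery, had 34.9 and 26.5 CPM in DMSO and 10.5 to 14.2 CPM in doxorubicin, and its adjusted p of 0.0105 in edgeR was just outside the threshold (-1.37 ± 0.22). DESeq2 called 2 of the 16 lower, beside 8.02% of all genes: UPF3B and SMG9, a partner of the decay kinase SMG1 (-0.73 ± 0.14). RBM8A and SMG1, the factors with the highest counts, had values of -0.47 ± 0.19 and -0.33 ± 0.15. The counts describe each list, and no list was tested as a whole.

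**Figure D4:**
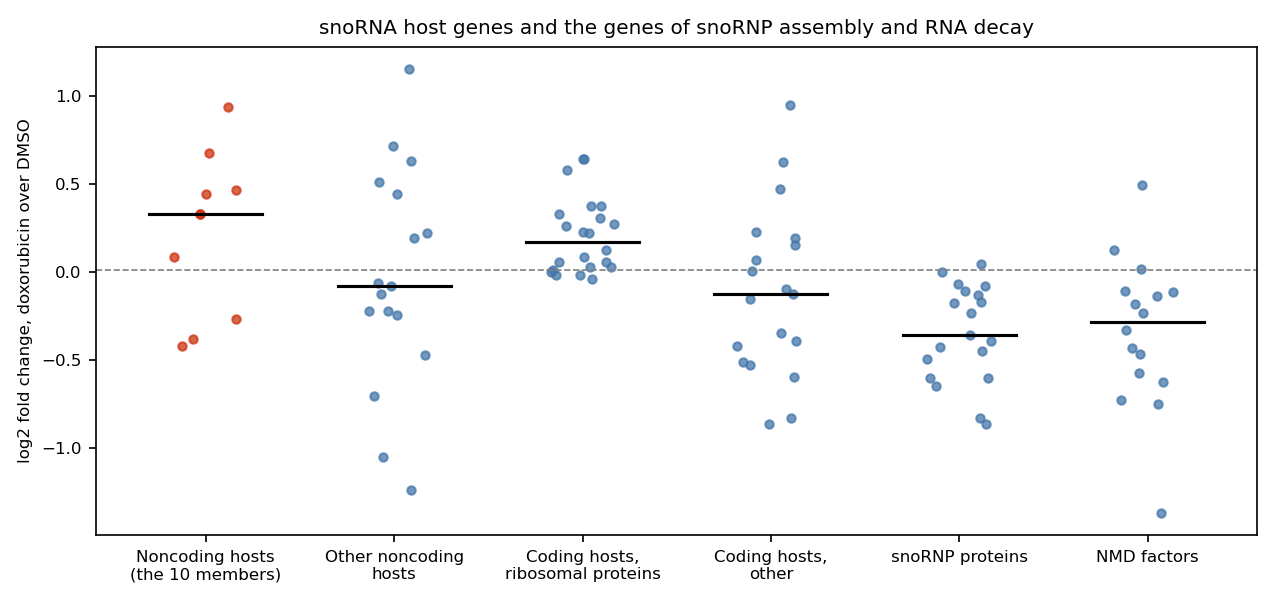
Fitted log2 fold change of doxorubicin over DMSO (vertical axis) for every gene tested of 6 gene groups (points), with the median of each group (black lines) and of all 14187 genes (dashed line). The medians are 0.33 for the 10 snoRNA host genes, 0.17 for coding hosts that encode ribosomal proteins and -0.36 for the snoRNA particle proteins, and every group spans values near 0.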

How the data were processed

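RNA-seq of 5 RPE1 libraries was analysed from the raw counts of reads per gene that the authors deposited. The authors sequenced poly-A RNA (75 bp, paired end), aligned the reads with STAR against hg38, and took gene counts from Rsubread on the matching iGenomes annotation. Tool versions, strandedness of the counting and the handling of reads with several hits were not given in the sources used here. A second table, with the authors' own fold changes and p-values for the genes they called, was not used. Hi-C and ChIP-seq data were not analysed here.

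Counts were tested in R 4.3.3 with edgeR 4.0.16 (quasi-likelihood test, TMM normalization, filterByExpr with a minimum count of 10 and total of 15), 3 pooled doxorubicin against 2 DMSO libraries, without covariates. Genes were called at a Benjamini-Hochberg adjusted p of 0.01 over 14187 genes. The dose contrast came from a fit of 3 conditions to all libraries, with 2 residual degrees of freedom. Each standard error is the log2 fold change over the root of its F statistic. DESeq2 1.42.0, limma 3.58.1, other normalizations, filters and thresholds, a block on the replicate number and leaving out each library were the alternatives. The code was tested on simulated data. Log2 CPM used a prior count of 2. Total counts were between 23773061 and 36725345 and normalization factors between 0.975 and 1.04. Libraries of a pair were checked for being copies: the chi-square per degree of freedom was 117 in DMSO and 75.3 at 0.2 µM, so all were counted. P-values set the difference between groups against the spread between these libraries. In the pooled test this spread includes any difference between the doses.

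The members and gene lists were chosen with earlier results of these data known, and the lists come from general knowledge, matched by symbol, 6 names through older symbols. The genes named are the 10 members, of each list those called and the 2 with the highest mean CPM, overlapping or divergent neighbours (within 1 kb), and the 5 genes nearest in profile. DESeq2 calls, EPB41L4A-AS1 and UPF3B were singled out after their values were seen. Positions and start-site sequences come from RefSeq (GRCh38.p14), with 8 of 10 members matched; the supplied genome was of another build and was not used. Exon lengths were not used, so levels are not compared between genes.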

Additional observations from a re-analysis of the deposited data

How the results depend on the processing

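The count of snoRNA host genes called stayed at 0 under DESeq2, limma voom, both other normalizations, no filter, an adjusted p of 0.05, 0.2 µM alone against DMSO and without each library, and was 1 with a replicate block on the DMSO and 0.2 µM libraries, where SNHG8 had 1.10 and an adjusted p of 0.0049 in edgeR; over its 13 alternatives the adjusted p of SNHG8 ran from 0.0049 to 0.368. The labels number only 1 DMSO and 1 library at 0.2 µM, and nothing ties equal numbers to a shared day. The deviations of the libraries numbered 2 from their group means correlated at r = 0.528 across 14187 genes, which are not independent replicates, and with 2 pairs this does not establish a pairing. In all genes the block gave 580 higher and 669 lower calls against 183 and 388. The median change of the host genes was reversed, at -0.0752, without the first DMSO library, and leaving out each library in turn gave -0.0752 to 0.742; the cause was not tested. Of the 10 genes, 6 had the same direction in every alternative, while SNHG1, SNHG7, SNHG12 and SNHG16 changed sign in at least 1. Other lists had 0 calls in the main test. Under DESeq2 they had 1 (other noncoding hosts), 5 (coding hosts), 1 (snoRNA particle proteins) and 2 (decay factors), and at an adjusted p of 0.05 they had 1, 2, 1 and 2. Without a filter there was 1 coding host and 1 decay factor, and with the replicate block 1 other noncoding host, 1 coding host and 1 decay factor. The dose contrast gave 0 host genes in every alternative run. Over all genes DESeq2 called 935 higher and 1138 lower, an adjusted p of 0.05 gave 866 and 1061, no filter 404 and 616 with the median of all genes at 0.15, 0.2 µM alone 39 and 132, and leaving out the second DMSO library 2 and 47, without the first 32 and 183, and without a doxorubicin library between 37 and 71 higher and 136 and 146 lower. Between 51 and 213 counts lie behind each value of SNHG15, the least counted host, and up to 76 behind that of a single snoRNA.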
